A study of Rattus norvegicus with 16 samples.

Results

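Sox10, Myrf, Olig1, Olig2, Pdgfra and Cspg4 are genes of the oligodendrocyte lineage. The first 4 encode transcription factors, and the last 2 encode surface proteins that mark precursor cells. The 6 genes were taken by symbol from a table of 15580 rat genes, and all 6 were among the 14208 genes with enough counts to be tested. Messenger RNA was sequenced from 16 brain samples of male Wistar rats, which the series' design text places in the amygdala and the sample labels describe only as brain lysate. The samples formed 4 groups of 4 libraries. Control rats had stayed with the dam and ate standard chow, and HFD rats had stayed with the dam and were given a high fat diet. ELS rats, for early-life stress, had been taken from the dam for 3 h a day on 16 days starting at postnatal day 1 and ate chow. ELS-HFD rats were separated in the same way and later ate the high fat diet. All rats went through an elevated plus maze near postnatal day 57, and the diets began at postnatal day 60. The age at which tissue was taken was not given in the sources used here. Each sample carries a code, a number with the letter N or B, whose meaning the labels do not state, and both letters occur in every group. Control 3 and HFD 2 share a number with different letters, and whether they are related is not stated. No dam or litter is named, so libraries of a group may come from siblings, and each p-value measures only the spread between these samples. No 2 libraries of a group agreed within sampling noise, with a chi-square per degree of freedom of at least 4.32.

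Oligodendrocytes make the myelin sheaths of the brain and arise from precursor cells that go on dividing in the adult. The precursors carry the PDGF receptor alpha and the proteoglycan NG2 on their surface and lose both as they mature. The factors Olig1, Olig2 and Sox10 are present in precursors and in mature cells alike, whereas Myrf is switched on as a precursor becomes a myelinating cell. Each library is bulk tissue, so fewer cells of a type and less RNA per cell cannot be told apart.

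Promoter sequences are shown to set a gene that varied with Sox10 and Myrf between libraries, Olig2, beside the precursor markers Pdgfra and Cspg4. Of the 6 genes, these 3 had an entry in the RefSeq promoter table (GRCr8 build), and the 250 bases before the gene's start are printed 5′ to 3′ on the gene's strand. They lie at chr11:43961335-43961584 on the plus strand for Olig2, chr14:33408517-33408766 on the minus strand for Pdgfra and chr8:66160692-66160941 on the plus strand for Cspg4. Capitals mark matches to 3 motifs searched on both strands, a Sox motif (ACAAAG), an E-box (CANNTG), which basic helix-loop-helix factors such as Olig2 can bind, and a Myrf motif (CTGGCAC or CTGGTAC).
Olig2: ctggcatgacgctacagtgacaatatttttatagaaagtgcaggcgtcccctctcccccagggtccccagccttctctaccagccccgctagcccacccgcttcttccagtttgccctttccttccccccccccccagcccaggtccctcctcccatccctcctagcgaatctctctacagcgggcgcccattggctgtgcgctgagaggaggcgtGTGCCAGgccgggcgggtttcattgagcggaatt
Pdgfra: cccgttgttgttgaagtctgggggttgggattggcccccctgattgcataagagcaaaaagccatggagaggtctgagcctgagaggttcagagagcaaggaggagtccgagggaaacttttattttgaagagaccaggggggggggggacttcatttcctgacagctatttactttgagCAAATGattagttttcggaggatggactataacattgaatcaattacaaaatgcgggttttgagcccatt
Cspg4: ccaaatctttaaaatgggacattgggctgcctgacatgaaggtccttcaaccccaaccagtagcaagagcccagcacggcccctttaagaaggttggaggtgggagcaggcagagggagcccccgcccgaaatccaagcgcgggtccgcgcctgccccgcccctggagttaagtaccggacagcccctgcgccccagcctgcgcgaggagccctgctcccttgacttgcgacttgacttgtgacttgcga
The Olig2 window held 1 Myrf motif, read on the opposite strand as GTGCCAG, whose match lay 34 bases before the start, and 5.48% of 33469 rat promoters of this length held such a motif. The Pdgfra window held 1 E-box, CAAATG, at 70 bases before the start, and 65.5% of promoters held an E-box. None of the 3 windows held the Sox motif, which 16.3% of promoters did, and the Cspg4 window held none of the 3 motifs. The matches overlapped no other motif searched, and they are letters in a window, not measured binding.

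Sequencing depth ran from 11438086 to 23629824 counts per library. Levels are given as CPM, counts as a share of a common library size scaled by trimmed means of M values (TMM). CPM of different genes cannot be compared, since transcript length and priming differ. The 6 measured markers of amygdala nuclei were detected in every library, at a summed CPM of 309.6 to 672. As the mean log2 deviation from each gene's mean over all libraries, their level was -1.09, -0.54, -0.51 and 0.22 in ELS-HFD 1 to 4 and -0.87 in control 4, and it lay between -0.13 and 0.53 in the other 11 libraries. Of the 6 amygdala markers, Sst had 2738 to 7964 raw counts per library and Crh 17 to 169. Their summed CPM was therefore weighted towards Sst. Markers of structures next to the amygdala varied widely between libraries. The summed CPM of 7 choroid plexus genes ran from 4.67 to 13099, and the level of 7 striatal neuron genes ran on the same scale from -1.41 in ELS-HFD 2 to 1.65 in ELS 3. Within the separated groups, ELS 1, ELS 2 and ELS-HFD 1 stood apart by low choroid plexus genes (-2.33, -5.27 and -6.28) and ELS 3 and ELS 4 by high myelin genes. For the 6 genes, folds that rest on these libraries are given with and without them. Correlations of the transcription factors with each other, with myelin genes and with committed precursors are given with and without ELS 3 and ELS 4. List medians, folds of other genes, ratios of genes and ranks by SD are given from all libraries only.

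Sox10, a high-mobility-group factor needed for the maturation and survival of oligodendrocytes, was at 61.8, 63.9, 67.3 and 75.4 CPM in control libraries 1 to 4. It was at 52.3, 55.0, 59.3 and 56.2 CPM in the HFD libraries. The ELS libraries held 62.2, 68.4, 101 and 104 CPM, and the ELS-HFD libraries 47.4, 53.5, 66.6 and 52.6 CPM. Every HFD library lay below every control library, and ELS 3 and ELS 4 lay above the libraries of the other 3 groups and above the rest of their own. The group means were 67.1 ± 6.0 CPM in the control group, 55.7 ± 2.9 in the HFD group, 83.9 ± 21.6 in the ELS group and 55.0 ± 8.2 in the ELS-HFD group (SD, n = 4 each).

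Myrf, a membrane-bound factor that is cut free to switch on myelin genes, was at 81.9, 83.3, 83.9 and 109 CPM in control and at 77.6, 73.9, 83.9 and 86.5 CPM in HFD. It was at 74.2, 80.9, 136 and 132.8 CPM in ELS and at 58.4, 79.7, 81.03 and 76.1 CPM in ELS-HFD. ELS 3 and ELS 4 were again the highest libraries and ELS-HFD 1 the lowest, and every ELS-HFD library lay below every control library.

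Olig1, a basic helix-loop-helix factor of the lineage, was at 136, 146.7, 145 and 166 CPM in control and at 139.9, 142, 152 and 147.1 CPM in HFD. It held 135, 145, 210.0 and 182 CPM in the ELS libraries and 119, 136, 145 and 125 CPM in the ELS-HFD libraries. ELS 1 and ELS 2 lay within the range of the undisturbed groups or just under it, and ELS 3 and ELS 4 lay above it.

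Olig2, the factor that commits neural progenitors to the lineage, was at 47.9, 50.3, 46.5 and 55.6 CPM in control and at 46.9, 52.8, 51.0 and 47.5 CPM in HFD. It was at 47.3, 49.2, 76.3 and 58.0 CPM in ELS and at 42.8, 47.1, 50.1 and 44.1 CPM in ELS-HFD. ELS 3 was the highest library, well above ELS 4, which was close to control 4.

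Pdgfra, the receptor through which PDGF-A keeps precursors dividing, was at 99.6, 78.4, 94.7 and 120.7 CPM in control and at 98.3, 90.5, 90.4 and 78.6 CPM in HFD. It was at 89.6, 84.6, 103 and 100.3 CPM in ELS and at 97.0, 101, 97.2 and 92.1 CPM in ELS-HFD. The control libraries spanned the whole range of the series, and the other groups lay inside it.

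Cspg4, which encodes NG2, was at 13.5, 12.9, 17.3 and 29.7 CPM in control and at 13.5, 14.5, 22.2 and 17.2 CPM in HFD. It was at 17.01, 17.4, 17.2 and 16.8 CPM in ELS and at 18.5, 23.4, 13.1 and 22.97 CPM in ELS-HFD. Control 4 was the highest library and control 2 the lowest, and the ELS libraries were nearly equal. The raw counts of Cspg4, the fewest of the 6 genes, were at most 361 in a library, and counting error alone gives a coefficient of variation of 7.98% at its lowest count, in HFD 1. Raw counts of the other 5 genes ran from 544 to 3389.

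**Figure D1:**
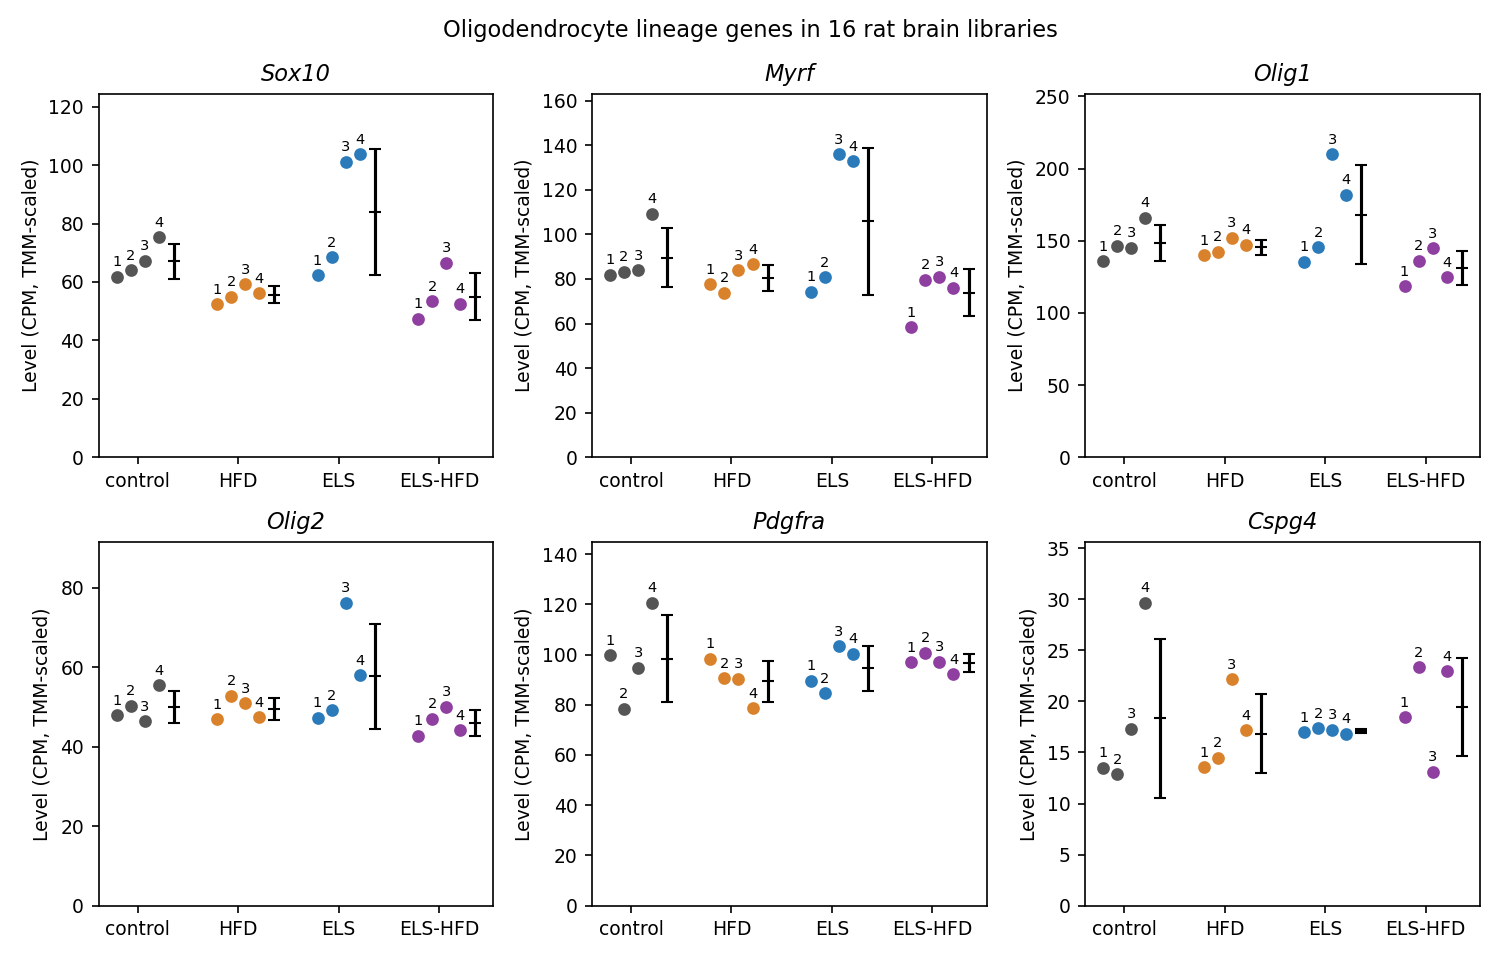
Level of each gene in TMM-scaled CPM on a linear axis from 0, with 1 point per library, numbered by replicate, and bars for the mean ± SD of the 4 libraries of a group. ELS 3 and ELS 4 stand above the other libraries for Sox10 and Myrf, and control 4 stands at the top for Pdgfra (120.7 CPM) and Cspg4 (29.7 CPM).

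The order of group means was ELS, control, HFD and ELS-HFD for all 4 transcription factors, and control, ELS-HFD, ELS and HFD for Pdgfra. For Cspg4 the order was ELS-HFD, control, ELS and HFD. By the tests that follow, no neighbours in these orders differed past the threshold, except that ELS against HFD, neighbours for Pdgfra and Cspg4, was not tested. The highest library exceeded the lowest by 2.19-fold for Sox10, 2.33-fold for Myrf, 1.77-fold for Olig1, 1.78-fold for Olig2, 1.54-fold for Pdgfra and 2.31-fold for Cspg4. Against the 1000 genes nearest in level, Sox10 had a larger SD of log2 CPM over the 16 libraries than 96.4% of them and Myrf than 95.6%. The share was 90.0% for Cspg4, 84.9% for Olig1, 82.4% for Olig2 and 71.9% for Pdgfra.

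Differences between groups were tested with edgeR's quasi-likelihood test over all 14208 genes, and log2 folds are given ± SE. The question of the high fat diet in separated rats, ELS-HFD against ELS, gave the lowest p-values for the 4 transcription factors. Sox10 was at a log2 fold of -0.61 ± 0.15 (95% interval -0.92 to -0.30, edgeR adjusted p = 0.648), which ranked it 18th of all genes by p. Myrf was at -0.52 ± 0.18 (edgeR adjusted p = 0.678), Olig1 at -0.36 ± 0.11 (0.678) and Olig2 at -0.33 ± 0.12 (0.685). None passed the threshold of 0.05. Pdgfra was at 0.03 ± 0.11 with an interval of -0.20 to 0.26, and Cspg4 at 0.19 ± 0.24 with an interval of -0.33 to 0.70. At an unadjusted p under 0.05 stood 4 of the 6 genes, all lower in ELS-HFD, against 3.8% of all genes lower and 6.21% in either direction at that level. In all, edgeR called 1 of 14208 genes here (0.00704%), Samd4a, and DESeq2 called 5 (0.0352%), none of them among the 6. The DESeq2 adjusted p was 0.0926 for Sox10 and at least 0.331 for the other 5. For each of the 6 genes the ELS and ELS-HFD libraries overlapped: ELS-HFD 3, at 66.6 CPM of Sox10, lay above ELS 1.

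The authors' deposited table lists Sox10 at a log2 fold of -0.609 in this comparison with an adjusted p of 0.102. Once the p-values had been corrected for their distribution by the authors, their deposited table gives it an adjusted p of 0.0136. That value meets their cut-offs on adjusted p (up to 0.05) and on fold (from 1.5 upwards), which 20 of 15580 genes (0.128%) met in that column and 3 genes (0.0193%) before correction. For Myrf, Olig1 and Olig2 the corrected adjusted p in the authors' deposited table was 0.138, 0.106 and 0.214, and for Pdgfra and Cspg4 it was 0.999 and 0.973.

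The size of the Sox10 difference depended on the libraries that stood apart. Without ELS 3 and ELS 4, the log2 fold of ELS-HFD against ELS was -0.26 for Sox10, -0.08 for Myrf, -0.11 for Olig1 and -0.08 for Olig2, with no gene called. Without ELS 1, ELS 2 and ELS-HFD 1, the libraries low in choroid plexus genes, it was -0.83 for Sox10 (edgeR adjusted p = 0.0118), -0.77 for Myrf (0.0119) and -0.53 for Olig1 (0.0223), with Olig2 at -0.51 (0.0600) and 116 genes called. That comparison set 2 ELS libraries against 3 ELS-HFD libraries. The ELS libraries kept, ELS 3 and ELS 4, were the highest of the series for these factors, and ELS-HFD 1, left out, was the lowest. Its adjusted p-values follow from keeping these extreme libraries and cannot be read as support for a difference. The number of genes tested in this fit was not recorded, so no share is given for its count of called genes. With any 1 library left out, Sox10 stayed between -0.72 and -0.48, the smallest difference being without ELS 4, and its lowest edgeR adjusted p was 0.225. Myrf then ran from -0.65 to -0.38, Olig1 from -0.44 to -0.23 and Olig2 from -0.40 to -0.16, each smallest without ELS 3, which for Olig1 and Olig2 was a move of over 1.5 times. Cspg4 ran from 0.081 without ELS-HFD 2 to 0.35 without ELS-HFD 3. Striatal neuron genes were also high in these ELS libraries, at 1.65 in ELS 3 and 0.92 in ELS 4, and at 1.07 in ELS-HFD 4. All 7 had a negative log2 fold in ELS-HFD against ELS, with a median of -0.86, and none passed. Of the 6 amygdala genes, 5 had a negative log2 fold in that comparison, with a median of -0.80, and none passed. Across the 16 libraries, Pearson's r of Sox10 was 0.52 with the striatal list and 0.15 with the amygdala list. Neither passed (permutation p adjusted over 78 relations of a gene with a list 0.131 and 0.777). Leaving out ELS 3 and ELS-HFD 2 gave 0.27 for the striatal list. The part of these tissue markers in the Sox10 difference was not tested.

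**Figure D2:**
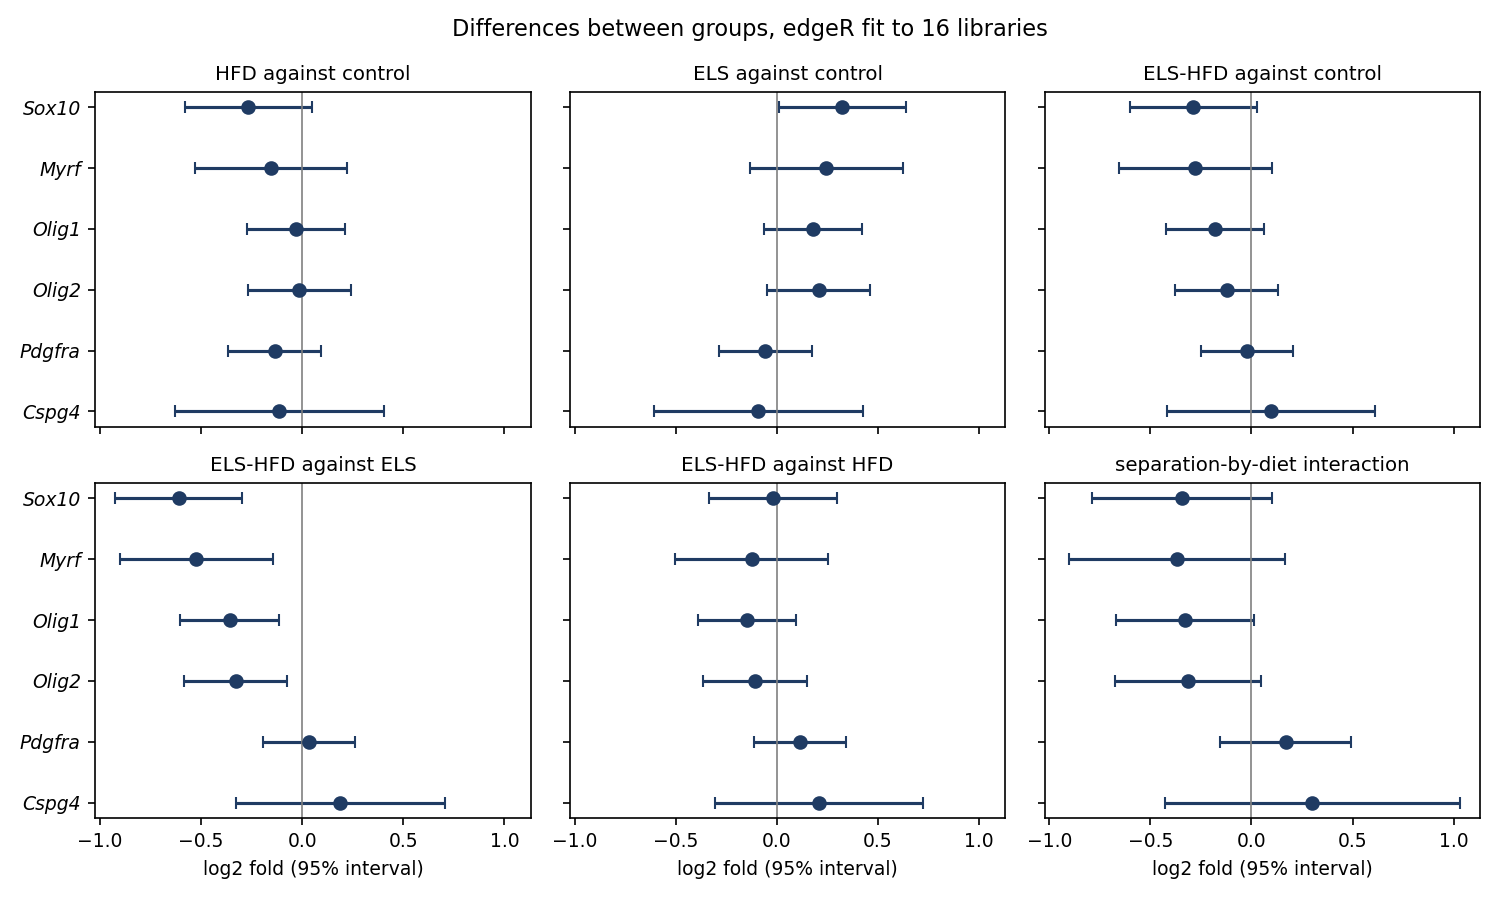
Log2 fold of each gene in the 5 comparisons of groups and the interaction, from the edgeR fit to 16 libraries, with bars for the 95% interval on a shared axis. The intervals of the 4 transcription factors lie below 0 for ELS-HFD against ELS, where Sox10 is at -0.61 and Cspg4 at 0.19, but no adjusted p passed 0.05.

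The effect of the diet in undisturbed rats, HFD against control, gave Sox10 a log2 fold of -0.27 ± 0.15 and Pdgfra -0.14 ± 0.11. Myrf was at -0.15 ± 0.18, Olig1 at -0.03 ± 0.11, Olig2 at -0.01 ± 0.12 and Cspg4 at -0.11 ± 0.24, and the edgeR adjusted p of each gene rounded to 1.00. Without control 4 Myrf was at -0.04 and Pdgfra at -0.02, and the sign turned for Olig1 (0.03), Olig2 (0.04) and Cspg4 (0.22). Pdgfra was at -0.23 without control 2. Sox10 was the only one of the 6 whose groups did not overlap, lower in all 4 HFD libraries, as were 1.15% of all genes. No gene in the table passed by edgeR, with 262 genes (1.84%) under 0.05 before adjustment. By DESeq2 1 gene passed (0.00704%), none of the 6.

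Separation on chow, ELS against control, gave Sox10 a log2 fold of 0.32 ± 0.15, Myrf 0.24 ± 0.18, Olig1 0.18 ± 0.11 and Olig2 0.21 ± 0.12 (edgeR adjusted p = 0.999 for each). Pdgfra was at -0.06 ± 0.11 and Cspg4 at -0.09 ± 0.24. Sox10 was the 1 gene of the 6 at an unadjusted p under 0.05, a level reached by 3.32% of all genes. No gene passed by edgeR (472 at an unadjusted p under 0.05) or by DESeq2. ELS 3 alone left out gave Myrf 0.10, Olig1 0.055 and Olig2 0.041, and ELS 4 alone gave Sox10 0.21, while without ELS 1 Myrf was at 0.38 and Olig1 at 0.27. Leaving out ELS 3 and ELS 4, the 4 positive folds changed sign, to -0.02 for Sox10, -0.19 for Myrf, -0.07 for Olig1 and -0.04 for Olig2. Without ELS 1, ELS 2 and ELS-HFD 1, Sox10 was at 0.61 (edgeR adjusted p = 0.0309) with 23 genes called.

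Both exposures together, ELS-HFD against control, gave Sox10 -0.29 ± 0.15, Myrf -0.28 ± 0.18, Olig1 -0.18 ± 0.11, Olig2 -0.12 ± 0.12, Pdgfra -0.02 ± 0.11 and Cspg4 0.10 ± 0.24 on the log2 scale. The edgeR adjusted p of each rounded to 1.00. With control 4 left out Myrf was at -0.17, Olig1 at -0.12, Olig2 at -0.066 and Cspg4 at 0.43. Myrf was the 1 gene of the 6 whose groups did not overlap, lower in ELS-HFD, as were 0.929% of all genes. No gene passed by edgeR (629, or 4.43%, at an unadjusted p under 0.05), and DESeq2 called 2 genes (0.0141%), neither of them among the 6. The comparison of ELS-HFD with HFD gave log2 folds from -0.15 ± 0.11 for Olig1 to 0.21 ± 0.24 for Cspg4, with Sox10 at -0.02 ± 0.15. Myrf, at -0.12 ± 0.18, was at -0.027 without ELS-HFD 1, Pdgfra, at 0.11 ± 0.11, was at 0.057 without HFD 4, and Cspg4 ran from 0.12 without ELS-HFD 2 to 0.37 without HFD 3. There edgeR and DESeq2 called no gene, and 252 genes (1.77%) reached an unadjusted p under 0.05, none of them among the 6.

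The test of whether the diet difference itself changed with separation gave -0.34 ± 0.21 for Sox10, -0.37 ± 0.25 for Myrf, -0.33 ± 0.16 for Olig1 and -0.31 ± 0.17 for Olig2. It gave 0.17 ± 0.15 for Pdgfra and 0.30 ± 0.34 for Cspg4, all with an edgeR adjusted p that rounded to 1.00. By edgeR 317 genes (2.23%) had an unadjusted p under 0.05 for this interaction, none of the 6 among them, and no gene passed by edgeR or DESeq2. With ELS 3 alone left out it was -0.23 for Myrf, -0.20 for Olig1 and -0.15 for Olig2, with ELS 4 alone left out -0.23 for Sox10, and with control 4 alone left out 0.051 for Pdgfra. Pdgfra was at 0.26 without control 2. The interaction without ELS 3 and ELS 4 was 0.0072 for Sox10 and 0.072 for Myrf, the opposite sign to that in all libraries. Comparisons that share a group, such as the 3 against control, share its libraries and are not independent.

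Whether the transcription factors moved relative to the precursor markers was asked with the log2 ratio of 2 genes within a library, a comparison chosen after the data were seen. In ELS-HFD against ELS, the ratio to Pdgfra was lower by a mean log2 difference of -0.62 for Sox10, -0.38 for Olig1 and -0.34 for Olig2. Each reached 0.0286, the smallest p that a two-sided exact permutation test of 4 against 4 libraries can give. The ratio of Myrf to Pdgfra differed by -0.52 (exact permutation p = 0.0571). Relative to Cspg4, the differences ran from -0.45 for Olig2 to -0.73 for Sox10. Adjusted over the 40 ratios tested, the lowest p was 0.381, and none passed.

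Across the 16 libraries the 4 transcription factors varied together, and no relation of a precursor marker with them passed. Pearson's r of log2 CPM was 0.95 for Myrf with Olig1 and 0.95 for Olig1 with Olig2. It was 0.92 for Sox10 with Myrf, 0.91 for Sox10 with Olig1, 0.86 for Myrf with Olig2 and 0.83 for Sox10 with Olig2. Spearman's rho for these 6 pairs ran from 0.61 to 0.88. After adjustment over all 15 pairs, the permutation p was at most 0.000125 for r and at most 0.0329 for rho. Leaving out ELS 3 and ELS 4, the libraries farthest from the median, r ran from 0.66 to 0.88, and with group means subtracted it ran from 0.80 to 0.94. The log2 ratio of Olig1 to Olig2 was the steadiest of the 15 pairs, with an SD of 0.064 over the 16 libraries and a range of 1.43 to 1.65. The range for Sox10 to Cspg4 was 1.19 to 2.61. In RefSeq gene order, Olig1 and Olig2 are neighbours with 0 annotated genes between them.

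The 9 pairs with Pdgfra or Cspg4 had r from 0.00 to 0.44, and none passed a permutation test. Pdgfra with Cspg4 had the highest of these (r = 0.44, rho = 0.24, permutation p of r adjusted over 15 pairs 0.188), and it was -0.12 without control 4 and control 2. After subtraction of group means, r with the 4 transcription factors ran from 0.45 to 0.50 for Pdgfra and from 0.09 to 0.29 for Cspg4.

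**Figure D3:**
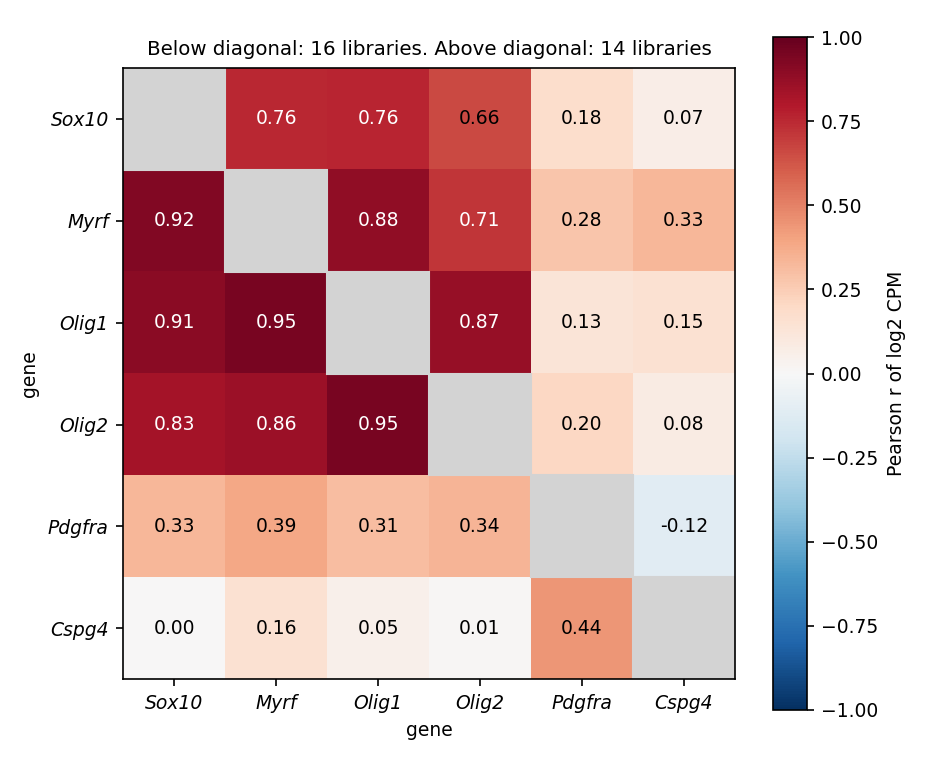
Pearson's r of log2 CPM for each pair of genes, over 16 libraries below the diagonal and over 14 libraries above it, after leaving out the 2 libraries farthest from the median of whichever gene comes first in the order shown. The block of Sox10, Myrf, Olig1 and Olig2 runs from 0.83 to 0.95 below the diagonal and from 0.66 to 0.88 above it.

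The measured neighbours of Sox10 and Myrf had narrower ranges than these genes. Polr2f, an RNA polymerase subunit and the neighbour of Sox10 in RefSeq order, stayed between 30.4 and 38.4 CPM and was at a log2 fold of -0.06 in ELS-HFD against ELS. Dagla, a diacylglycerol lipase and the neighbour of Myrf, stayed between 106 and 145 CPM and was at 0.02. Cspg4 overlaps Cimap1c in the RefSeq annotation, listed in the count table under its older symbol Odf3l1, which had 7 to 22 raw counts per library. Without a stated strand, how reads in the shared stretch were counted cannot be told. The few counts of Odf3l1 therefore do not show how far the counts of Cspg4 were affected. The overlap was read from GRCr8, whereas the counts used Rnor_6.0. Snx33, a sorting nexin and the measured neighbour of Cspg4, ranged from 9.86 to 22.5 CPM and was at a log2 fold of -0.48 in ELS-HFD against ELS. Gsx2, the neighbour of Pdgfra, had 1 to 10 counts and was too low to test.

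Markers of later and earlier steps of the lineage were compared next. Of 15 genes of mature myelin, none passed the threshold in any of the 6 tests, but all 15 had a negative log2 fold in ELS-HFD against ELS, where 50.6% of all genes did. Their median was -0.86 beside a median of -0.0020 over all genes, and 14 had an unadjusted p under 0.05. Mag, an adhesion protein of the innermost myelin wrap, was at -0.86 ± 0.26, and Fa2h, which makes hydroxylated myelin lipids, at -0.99 ± 0.30 (edgeR adjusted p = 0.661 for each). The list was highest in ELS 3 (1.06) and ELS 4 (0.88) and lowest in ELS-HFD 1 (-0.82). It lay between -0.46 and 0.31 in the other 13 libraries. The folds of this list were taken from all libraries only, with ELS 3 and ELS 4 included. All 15 also had positive folds in ELS against control (median 0.43, with 49.1% of all genes positive) and negative ones in HFD against control (median -0.22, with 54.3% of all genes negative).

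Of 10 markers of committed precursors and new oligodendrocytes, none passed in any test, and 7 were negative in ELS-HFD against ELS with a median of -0.20. Bcas1, a marker of new myelinating cells, was at -0.68 ± 0.26 and Rras2, a small GTPase, at 0.32 ± 0.13 (edgeR adjusted p = 0.697 and 0.722). Of 21 tested transcription factors and regulators of the lineage other than the members, none passed, 13 were negative and the median was -0.13 (Tcf7l2 is in both of these lists). Nkx6-2, a homeobox factor of mature oligodendrocytes, was at -0.93 ± 0.30, and Id2, which holds back differentiation, at 0.27 ± 0.10 (edgeR adjusted p = 0.678 and 0.685).

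Of 12 tested precursor markers beside Pdgfra and Cspg4, none passed in any test. In ELS-HFD against ELS 3 of the 12 were negative, with a median of 0.02. Megf11, a transmembrane protein, was at 0.33 ± 0.15 and the extracellular matrix protein Tnr at 0.20 ± 0.13 (edgeR adjusted p = 0.768 and 0.955). Of the PDGF ligands and the second PDGF receptor, 5 genes in all, none passed. Pdgfrb, the receptor of pericytes, was at 0.14 ± 0.16 and Pdgfa, the ligand of Pdgfra, at -0.05 ± 0.08 (edgeR adjusted p = 0.999 for both).

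**Figure D4:**
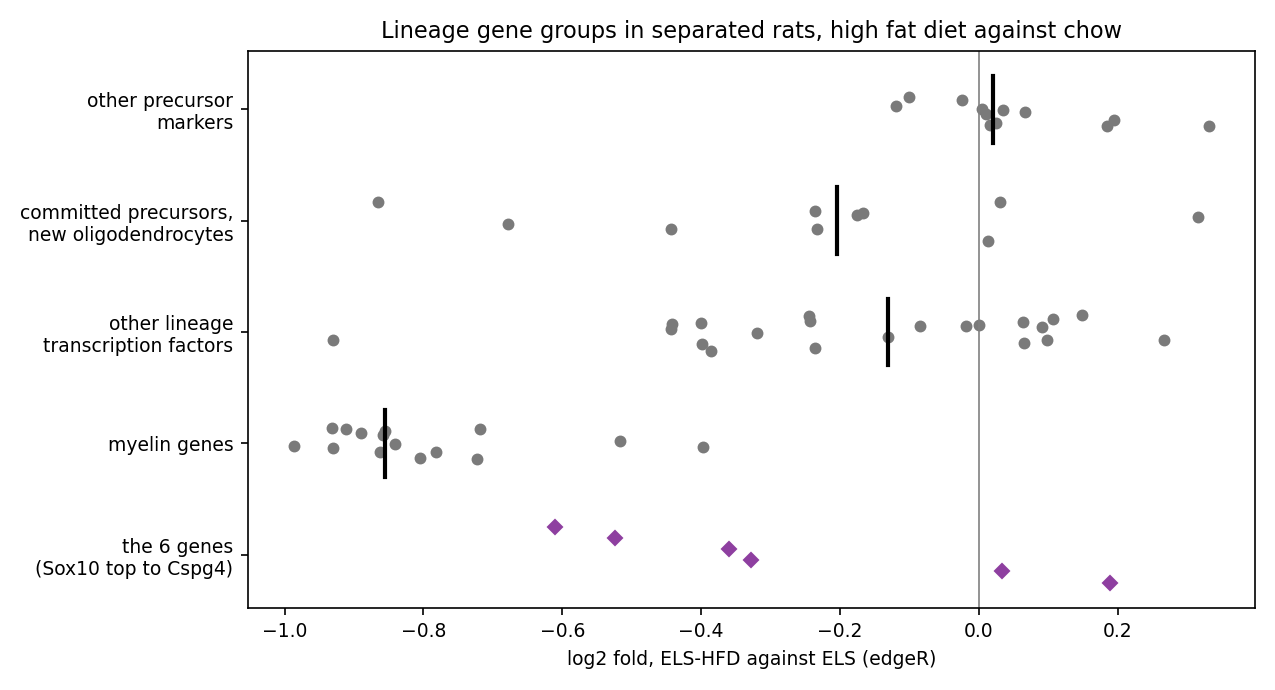
Log2 fold of ELS-HFD against ELS for each measured gene of 4 lists of the lineage (grey points, spread vertically only for legibility) with the median as a black bar, and for the 6 genes (diamonds, in the order Sox10, Myrf, Olig1, Olig2, Pdgfra and Cspg4 from top to bottom). The myelin median is -0.86 and that of the other precursor markers 0.02, and no gene shown passed the adjusted threshold.

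The transcription factors varied with the myelin genes across libraries. Among 78 relations of a member with the level of a list, r with the myelin list was 0.92 for Sox10, 0.90 for Myrf, 0.90 for Olig1 and 0.85 for Olig2 (permutation p adjusted over the 78 at most 0.000585). After removal of ELS 3 and ELS 4 these r were 0.78, 0.69, 0.72 and 0.65, and with group means subtracted 0.91, 0.84, 0.86 and 0.79. Spearman's rho was 0.77, 0.65, 0.62 and 0.64 with adjusted permutation p of 0.0413, 0.0787, 0.102 and 0.0787, so that by rank Sox10 alone passed. With the list of committed precursors, r ran from 0.79 for Olig2 to 0.88 for Myrf (adjusted permutation p at most 0.00503), rho from 0.45 to 0.71, with Myrf alone passing (adjusted permutation p = 0.0413). Without ELS 3 and ELS 4, r ran from 0.39 for Olig2 to 0.65 for Myrf. Pdgfra had r = 0.35 and Cspg4 r = -0.19 with the myelin list, and neither passed. With the list of committed precursors Pdgfra had r = 0.59 and rho = 0.67 (adjusted permutation p = 0.0877 and 0.0671). That r was 0.62 without ELS 3 and ELS 4, within the range of the transcription factors there. Cspg4 had r = 0.04 with that list, and neither passed. For the list of 21 other lineage regulators, r of the transcription factors ran from 0.45 for Olig2 to 0.59 for Myrf. Pdgfra, at 0.58, lay within that range, and Cspg4 was at 0.00. None of these passed (adjusted permutation p at least 0.0877).

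**Figure D5:**
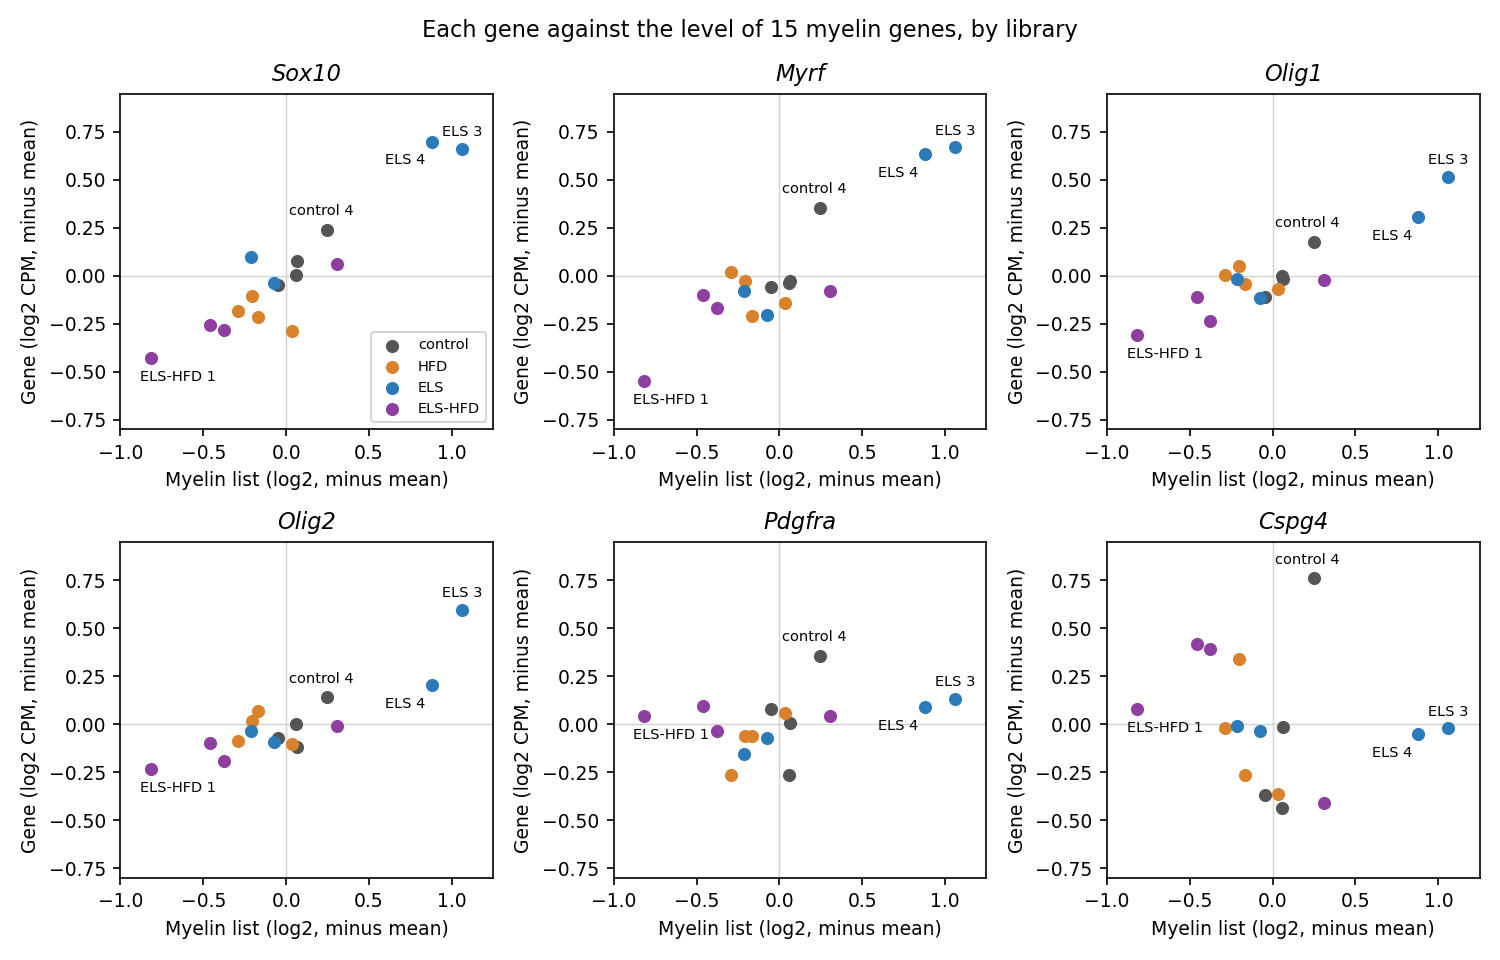
Each gene (log2 CPM minus its mean) against the mean log2 deviation of 15 myelin genes, with 1 point per library coloured by group. ELS 3, ELS 4 and ELS-HFD 1 lie at the ends of the trend for Sox10, Myrf, Olig1 and Olig2, while Cspg4 follows no such trend and is highest in control 4.

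The precursor markers varied with other lists. Cspg4 had r = 0.81 and rho = 0.75 with the level of the 12 other precursor markers (adjusted permutation p = 0.00146 and 0.0413), and r was 0.67 without control 4 and HFD 1 and 0.82 with group means subtracted. Pdgfra, which fibroblasts of the meninges and vessels also carry, had r = 0.64 and rho = 0.72 with 6 fibroblast genes (adjusted permutation p = 0.0417 and 0.0413), and 0.67 without ELS 4 and control 1. With group means subtracted that r was 0.60. Pdgfra and 8 neuronal genes had r = -0.70 and rho = -0.73 (adjusted permutation p = 0.0137 and 0.0413), with -0.67 without ELS-HFD 3 and control 4, and -0.71 with group means subtracted. Its r with the PDGF list was 0.69 (adjusted permutation p = 0.0274), but rho was 0.39 (0.334), and r was 0.34 without control 4 and HFD 4, so that relation rested on those libraries. Unlike Cspg4, Pdgfra did not pass with the 12 other precursor markers (r = 0.48, rho = 0.30, adjusted permutation p = 0.172 and 0.532). Neither precursor marker passed with the 8 pericyte genes, where r was 0.61 for Pdgfra and 0.33 for Cspg4. Leaving out HFD 4 and HFD 3 gave 0.47 for Pdgfra and 0.60 for Cspg4, so the low r of Cspg4 rested on those libraries. Subtracting group means gave 0.65 and 0.40. NG2 is also carried by pericytes.

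Marker genes of these other cell types were detected in every library, with none at 0 counts. The summed CPM was 37.8 to 91.9 for the fibroblast genes, 85.9 to 119 for the pericyte genes and 9.26 to 26.3 for 3 Schwann cell genes, cells that also use Sox10. None of the 8 pericyte, 6 fibroblast or 3 Schwann cell genes passed in ELS-HFD against ELS. Their medians there were -0.04, -0.11 and -0.31. The lowest p in each of the first 2 lists belonged to Vtn (-0.27 ± 0.15) and Kcnj8 (-0.29 ± 0.19) and to Dcn (0.96 ± 0.41) and Col1a1 (-0.37 ± 0.43). Across libraries, r with the Schwann cell list was 0.52 for Sox10, 0.55 for Myrf, 0.52 for Olig1 and 0.41 for Olig2. None passed (permutation p adjusted over the 78 relations at least 0.105). What share of the members' levels came from these other cells was not tested. No gene of the astrocyte, microglia, neuron, choroid plexus, amygdala or striatal lists passed in any test, and their medians in ELS-HFD against ELS were 0.02, -0.09, -0.01, -0.23, -0.80 and -0.86. The neuronal median near 0 combined 4 positive and 4 negative folds, and 5 of these 8 genes had an unadjusted p under 0.05 by edgeR. Of the 6 amygdala genes 3 did, and no astrocyte, microglia, choroid plexus or striatal gene, against 6.21% of all genes. Control 4, the top library for Pdgfra and Cspg4, was also the highest for astrocyte genes (0.47), other precursor markers (0.21) and pericyte genes (0.19) and among the lowest for striatal neuron genes (-1.35).

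The genes most like each member over the 16 libraries, by Pearson's r of log2 CPM among all genes tested, are given as a description. For Sox10 they were Gab1 (0.96), Abca8a, Slain1, Sema4d and Erbb3 (0.95 each), which include an adaptor of receptor tyrosine kinases, Gab1, and a neuregulin receptor, Erbb3. For Myrf they were Npc1, a cholesterol transporter, and Olig1, Pacs2, RGD1563888 and Map4k4, with r from 0.94 to 0.95. For Olig1 they were Myrf, Olig2, Hhip, Desi1 and Tmbim1, with r from 0.93 to 0.95, and for Olig2 Olig1, AABR07028769.1, Tmbim1, Ppp1r16b and Enpp4, from 0.89 to 0.95. Without ELS 3 and ELS 4, r with these genes fell to a range of 0.84 to 0.86 for Sox10 and 0.63 to 0.87 for Olig2.

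For Pdgfra the most alike were Hdac7 (0.85), Lima1, Itgb1, Fzd4 and Cntrl (0.81), and for Cspg4 Vps13d (0.92), Sptbn1, Lrp1, Atxn2l and Map1a (0.90). No member appeared in the list of either precursor marker, nor did either appear in the list of a transcription factor. Leaving out ELS 3 and ELS 4 gave r of 0.80 to 0.87 for the genes most like Pdgfra and 0.92 to 0.94 for those most like Cspg4.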

How the data were processed

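Libraries were made from 15 ng of RNA with barcoded oligo-dT primers and linear amplification, per the labels' protocols. The authors deposited raw counts per gene, per the file headers. Their normalized signal columns, per the file headers, supply no value printed here. Tools named in the submitters' processing notes are cutadapt, STAR, Picard, HTSeq and DESeq2, and the build is Rnor_6.0. Whether strand or molecular identifiers entered the counting was not given in the sources used here. Alongside, the deposited table also holds log2 folds, p-values and adjusted p-values by the authors, before and after a correction with no stated method.

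Counts were tested with the quasi-likelihood test of edgeR 4.0.16 in R 4.3.3 on all 16 libraries, with TMM scaling and filterByExpr (minimum count 10, minimum total 15). P-values were adjusted by Benjamini-Hochberg over 14208 genes, with a threshold of 0.05. DESeq2 1.42.0 on the same genes was an alternative. The edgeR script was tested on simulated data. Log2 CPM used a prior count of 2, and correlations 100000 permutations. A list's level in a library is the average, over its genes, of the deviation of log2 CPM from the gene's mean. Ratios were compared by exact permutation. RefSeq order (GRCr8) served only for names and neighbours, and no promoter position is converted between builds.

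Members and lists were chosen with earlier results of these data known. The rule for named genes took the members, the 2 genes of each list with the smallest p, the 5 genes most like each member and genes overlapping members. Neighbours were added after the data were seen, and lists of other cell types are mostly given by medians. Alternatives were another scaling, no filter, DESeq2, only the compared groups, a replicate block, leaving libraries out and, added after seeing the data, the letter of the sample code as a term.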

Additional observations from a re-analysis of the deposited data

Results flagged for a closer look

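Myrf in control 4, at 109.247 CPM, was far from the other control libraries, of which the highest was at 83.9 CPM. Dixon's gap test was applied to 24 groups of 4 libraries, 1 per gene and group, and chance flags about 1 in 20 such groups. In the same library Cspg4 was at 29.7 CPM and Pdgfra at 120.7 CPM, the highest values of the series, without meeting that criterion. Leaving out control 4 gave Myrf a log2 fold of -0.04 in HFD against control and -0.17 in ELS-HFD against control.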

How the results depend on the processing

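All 36 member folds (6 genes, 6 contrasts) kept their direction and their side of the threshold with DESeq2 size factors, the DESeq2 test, no filter on low counts and a replicate block. The replicate block gave the same counts of called genes, 1 for ELS-HFD against ELS and 0 elsewhere. Same-numbered libraries correlated over 0.1 in 8 of 24 pairs of deviations, with r from -0.48 to 0.65. Libraries of different numbers were not compared, so whether the numbers pair samples cannot be told from these values. All 30 folds fitted with the compared groups alone, which the interaction does not allow, also kept both, though ELS-HFD against ELS then had 0 called genes. A term for the letter of the sample code, added after seeing the data, also kept direction and side for all 36 folds and gave the same counts of called genes, with Sox10 at -0.62 in ELS-HFD against ELS and Cspg4 at -0.19 in HFD against control. DESeq2 called 1 gene for HFD against control, 2 for ELS-HFD against control and 5 for ELS-HFD against ELS.

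Without ELS 3 and ELS 4, 0 genes were called for ELS-HFD against ELS, and signs changed for ELS against control (Sox10 -0.023, Myrf -0.19, Olig1 -0.065, Olig2 -0.038) and for the interaction (Sox10 0.0072, Myrf 0.072). Without ELS 1, ELS 2 and ELS-HFD 1, 23 genes were called for ELS against control and 116 for ELS-HFD against ELS. Sox10 then passed in the first (0.61), and Sox10 (-0.83), Myrf (-0.77) and Olig1 (-0.53) in the second. In these fits the ELS group held only ELS 3 and ELS 4, the highest libraries for these genes, and the number of genes tested was not recorded. Signs changed for Pdgfra in ELS against control (0.051) and ELS-HFD against ELS (-0.075) and for Sox10 in ELS-HFD against HFD (0.045). The Pearson r of Sox10 and Cspg4 became -0.0079 with DESeq2 size factors. The cause was not tested for any of these.

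With 1 library left out, 560 folds kept their direction and side and 16 changed sign. These ran from -0.057 to 0.030 (Olig1), -0.048 to 0.042 (Olig2) and -0.27 to 0.22 (Cspg4) in HFD against control. In ELS against control they ran from -0.14 to 0.063 (Pdgfra) and -0.22 to 0.24 (Cspg4), and in ELS-HFD against control from -0.11 to 0.093 (Pdgfra) and -0.041 to 0.43 (Cspg4). Pdgfra ran from -0.015 to 0.080 in ELS-HFD against ELS, Sox10 from -0.12 to 0.046 in ELS-HFD against HFD, and Cspg4 from -0.034 to 0.46 in the interaction. Control 4 set the highest value of Pdgfra and Cspg4 in the comparisons with control. Called genes ranged from 0 to 1 for ELS-HFD against control, where 1 was called without ELS-HFD 3, and from 0 to 1 for ELS-HFD against ELS, where 0 were called without any 1 of the compared libraries other than ELS 4 and ELS-HFD 3. The counting error of Cspg4, with the fewest counts, was at most 7.98%, and its SD within groups was 0.37 on the log2 scale.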
